A study of Mus musculus with 90 samples.

Results

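The genes that moved within 2 h of fresh interferon gamma (IFNγ) were examined in CT26 cells, a mouse colon carcinoma line, that had already lived in IFNγ for 2 weeks. The samples compared were 3 cultures rechallenged for 2 h (the 2 h group) and 3 cultures harvested without rechallenge (the 0 h group), both kept in 50 IU/mL IFNγ for 2 weeks, and they make up 6 of the 45 CT26 samples and of the 90 samples of the series. Around them, 3 cultures at the same week were rechallenged for 24 h, and 3 control cultures at the same week received bovine serum albumin carrier and no IFNγ. Naive cells served as a reference, with 3 cultures given their first IFNγ for 2 h and 3 control cultures without IFNγ, as did 3 rechallenged and 3 unrechallenged cultures after 3 weeks of IFNγ. All cells were plated in 6-well dishes for the final 48 h, and their RNA was profiled by 3′ digital gene expression, a sequencing assay that reads transcripts at the 3′ end. The labels speak of triplicate experiments without saying whether the cultures were grown apart, so the tests measure the spread between these samples only. No group that received fresh medium without IFNγ for 2 h is among the samples analysed here, so the effect of fresh IFNγ and that of the handling that came with it cannot be told apart.

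IFNγ binds a receptor whose Janus kinases, JAK1 and JAK2, start a signal of STAT transcription factors. These bind gamma-activated sites (GAS) in promoters and switch on an early set of genes, among them the transcription factor IRF1, which in turn binds interferon-stimulated response elements (ISRE) in a later set. The later set includes the machinery of antigen presentation and guanosine triphosphatases that attack the vacuoles of intracellular pathogens. SOCS1 is an inhibitor that dampens the pathway during long exposure.

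Total counts were 1080166 to 1736116 in the 0 h libraries and 1545720 to 2080209 in the 2 h libraries, so the rechallenged libraries were on the whole deeper, and the part of depth in the results was not tested. Of the epithelial markers, Krt19, Cdh1, Epcam, Vil1 and Cdx2, 5 of the 8 listed, had 0 counts in all 6 libraries, and the summed level of the list was 62.6 to 71.1 CPM (counts scaled to a common library total) at 0 h and 98.1 to 109 CPM at 2 h, nearly all of it from Krt20 and Krt18. The leukocyte list summed to 37 to 59 CPM at 0 h and 40 to 53.6 CPM at 2 h. Nearly all of it came from Cd14, with means of 47.6 CPM at 0 h and 45.8 CPM at 2 h. In this list 3 of 6 genes, among them Cd3e and Adgre1, had 0 counts throughout. The melanocytic list stood at 2.89 to 6.65 CPM against 2.35 to 5.06 CPM with 4 of 6 genes at 0 counts, and the mesenchymal list, led by Fn1 and Vim, at 1060 to 1230 CPM against 1160 to 1500 CPM with none at 0 counts. In bulk samples such as these, a smaller share of cells that express a gene and less of its RNA per cell cannot be told apart.

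After 2 h of rechallenge, 26 of 8516 genes tested (0.305%) passed an adjusted p of 0.05 in edgeR's quasi-likelihood test (Benjamini-Hochberg adjustment). Of these, 25 rose (0.294%) and 1 fell. In each of the 25 all 3 rechallenged samples lay above the 3 samples without rechallenge, as in 565 genes (6.63%) of all tested. The 25 were picked by a test on these same samples, so their separation adds no support. The risen genes held 15 members of the interferon lists, 5 members of other lists and 5 genes in no list. At an unadjusted p of 0.05, 605 genes passed, and the median log2 fold change of all genes tested was 0.02. Without the filter on low counts the test called 83 genes, 73 higher and 10 lower, among them all 26.

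**Figure D1:**
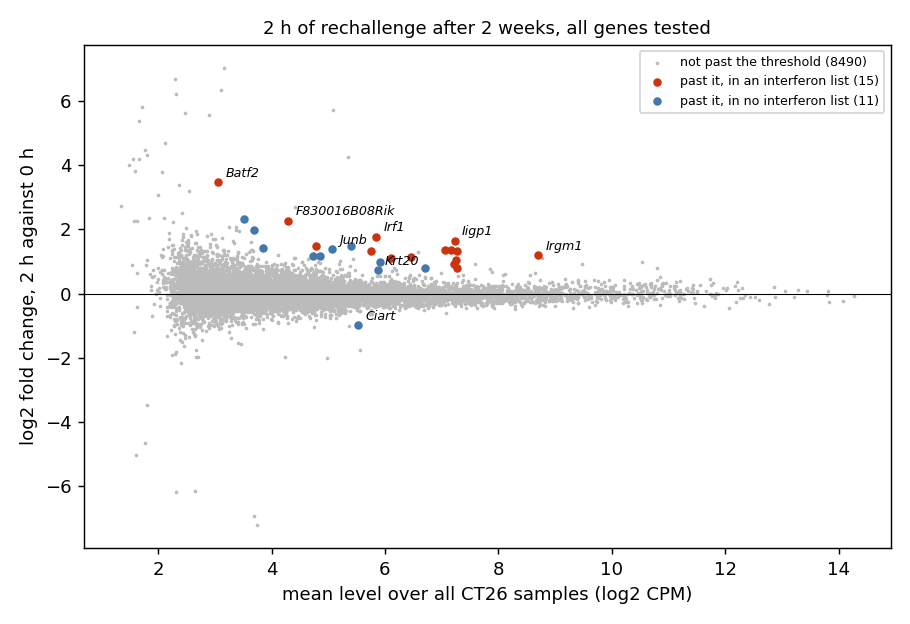
Each point is 1 of the 8516 genes tested in CT26 after 2 weeks of IFNγ, with the mean level over all CT26 samples (log2 CPM) on the horizontal axis and the log2 fold change of 2 h against 0 h of rechallenge on the vertical axis. Red points are the 15 genes past the threshold in an interferon list, blue points the other 11, and grey points with large fitted changes at the left are genes of low counts that did not pass.

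The promoters of 3 risen genes are shown because they hold a GAS match, the letters TTCNNNGAA, which read the same on both strands. Each sequence is the 250 bases before an annotated start (RefSeq, GRCm38.p6), 5′ to 3′ on the gene's strand, with the match in capitals.
Irf1, chr11:53769764-53770013, plus strand: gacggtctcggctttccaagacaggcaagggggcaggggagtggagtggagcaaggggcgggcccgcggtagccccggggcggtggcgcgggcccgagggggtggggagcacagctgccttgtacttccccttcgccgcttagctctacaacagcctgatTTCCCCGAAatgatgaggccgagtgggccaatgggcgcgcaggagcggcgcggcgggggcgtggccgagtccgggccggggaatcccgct
Igtp, chr11:58199306-58199555, plus strand: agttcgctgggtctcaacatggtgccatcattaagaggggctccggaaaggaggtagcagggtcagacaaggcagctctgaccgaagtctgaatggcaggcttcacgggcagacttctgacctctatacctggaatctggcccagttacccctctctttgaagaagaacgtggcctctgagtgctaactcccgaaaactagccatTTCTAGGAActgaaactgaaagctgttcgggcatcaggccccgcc
Gbp7, chr3:142530086-142530335, plus strand: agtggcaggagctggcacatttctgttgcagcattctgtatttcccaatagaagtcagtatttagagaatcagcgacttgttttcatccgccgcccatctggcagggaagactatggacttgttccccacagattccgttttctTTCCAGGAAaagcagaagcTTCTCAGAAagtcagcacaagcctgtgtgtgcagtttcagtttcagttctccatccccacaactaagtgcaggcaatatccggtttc
The match began at position -90 from the start in Irf1, at -45 in Igtp, and at -106 and -87 in Gbp7. Irf1 has 2 annotated starts in the table, and the other start had no match.

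Promoter sequences of 300 bases, running from 250 bases before to 50 bases after a start, were in the reference table for 15 of the 25 risen genes and for 27025 genes in all. A GAS match was present in 3 of the 15 (20%) and in 2582 of all genes (9.55%). The core of an ISRE, GAAANNGAA on either strand, was present in 8 of the 15 (53.3%) and in 2638 of all genes (9.76%), and it may overlap a GAS match. The 8 were Gbp2b, Igtp, Ifi203, Gbp7, Irgm1, Mndal, Gbp3 and Gbp2. In Igtp and Gbp7 it lay at -34 and -52, downstream of the GAS matches shown. These are matches of letters, and no binding was measured.

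Among the regulators, Irf1 and Batf2 rose. Irf1, the transcription factor that relays the IFNγ signal to its later targets, stood at 22.3, 25.6 and 37.6 CPM without rechallenge and at 105, 91.9 and 104 CPM after 2 h. The groups were far apart, and the log2 fold change was 1.77 ± 0.18 (SE, n = 3 against 3; adjusted p = 7.68e-09, edgeR). Batf2, a basic leucine zipper factor induced by IFNγ, had 2, 0 and 2 counts without rechallenge and 21, 24 and 20 counts after 2 h. On depth-scaled counts this was a ratio of 12, with an exact 95% interval of 4.45 to 45.2 that covers counting error only, and the adjusted p was 0.00137 in the same test. Batf2 had 36, 12 and 26 counts at 24 h and at most 1 count in each control library. The other 9 tested members of the list of 15 regulators did not pass, and the median of the 11 tested was a log2 fold change of 0.14. Of these, Irf9, the DNA-binding subunit of the interferon-stimulated gene factor complex, gave 0.33 ± 0.13 (adjusted p = 0.57, edgeR), Nmi 0.18 and Ifi35 -0.20.

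**Figure D2:**
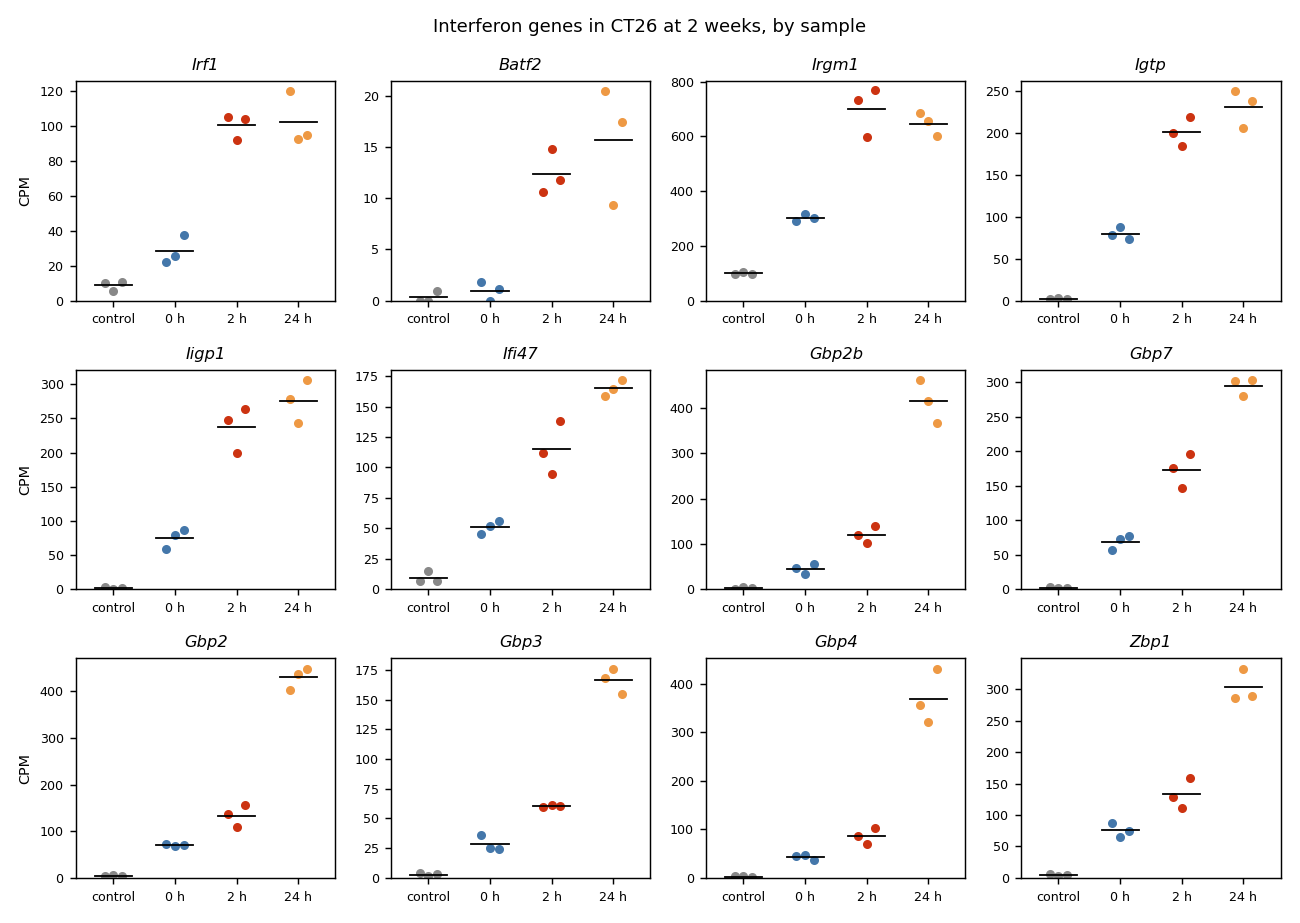
Each panel shows 1 interferon gene in CT26 at 2 weeks, as CPM per sample in the control group, without rechallenge (0 h), and after 2 h and 24 h of rechallenge, with a bar at the mean of the 3 samples. The 3 points at 2 h lie above the 3 points at 0 h in all 12 panels. Gbp2b, Gbp2, Gbp3, Gbp4, Gbp7 and Zbp1 passed the threshold as higher again at 24 h than at 2 h.

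Immunity-related GTPases, which are recruited to the membranes around intracellular parasites and bacteria, were the list with the most risen genes. Of 11 listed genes 10 were tested, 6 rose, and in all 10 the 3 rechallenged samples lay above the others, which was so for 6.63% of all genes tested. Their median log2 fold change was 1.27. Irgm1, a regulator that keeps the effector GTPases off the cell's own membranes, went from 290, 318 and 303 CPM to 732, 598 and 769 CPM. The samples of the groups did not overlap, and this was the smallest p in the comparison, with a log2 fold change of 1.20 ± 0.11 (adjusted p = 2.56e-10, edgeR). Igtp, also known as Irgm3, stood at 78.6, 87.4 and 72.8 CPM before and at 199, 184 and 219 CPM after rechallenge, a log2 fold change of 1.34 ± 0.14 (adjusted p = 1.83e-08, edgeR).

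Iigp1, an effector GTPase that disrupts parasite vacuoles, stood at 59, 79.8 and 87.2 CPM at 0 h and at 248, 200 and 263 CPM at 2 h. Its log2 fold change was 1.64 ± 0.18 (adjusted p = 1.97e-08, edgeR), and the lowest rechallenged sample was over the highest other sample by a wide margin. Its neighbours on chromosome 18, the related genes F830016B08Rik, Gm4841 and Gm4951, rose with it, with log2 fold changes of 2.27 ± 0.33, 1.97 ± 0.34 and 1.48 ± 0.24. Gm4841 was in no list, and F830016B08Rik and Gm4841 had between 4 and 13 counts in each 0 h library, which limits the precision of their folds. Ifi47, another member of the family, rose by 1.15 ± 0.19 on the log2 scale (adjusted p = 0.000147, edgeR).

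Of the family members that did not pass, Tgtp2 gave a log2 fold change of 1.11 ± 0.30 (adjusted p = 0.159, edgeR), Irgm2 1.12 ± 0.32 (adjusted p = 0.217) and Tgtp1 0.58 ± 0.31 (adjusted p = 0.738). Tgtp2 passed when only the 0 h and 2 h groups were fitted (adjusted p = 0.0042, edgeR) and, like Irgm2 and Tgtp1, without the filter. Tgtp1 and Tgtp2 are near-identical copies, Irgm2 overlaps Igtp on chromosome 11 in the annotation, and the counts of each pair may be divided wrongly between its genes.

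Guanylate-binding proteins are large GTPases that coat and lyse pathogen vacuoles. Of 11 listed genes 10 were tested and 5 rose, and the median log2 fold change was 1.04, or 1.01 with the 1 gene that had 0 counts at 0 h set to its lower bound (a floor of 3 counts over the group). Gbp2b stood at 47.4, 33.2 and 56 CPM at 0 h and at 120, 102 and 139 CPM at 2 h, a log2 fold change of 1.37 ± 0.17 (adjusted p = 3.52e-07, edgeR). Gbp7 stood at 56.3, 73.1 and 77.4 CPM and at 176, 147 and 196 CPM, a log2 fold change of 1.32 ± 0.16 (adjusted p = 2.04e-07, edgeR). In neither gene did the groups overlap.

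Gbp3 and Gbp2 rose by 1.11 ± 0.17 and 0.91 ± 0.16 on the log2 scale (adjusted p = 9.83e-05 and 0.000733, edgeR). Gbp7, Gbp3, Gbp2b and Gbp2 lie side by side on chromosome 3, in chr3:142530342-142638008 of GRCm38, and the related sequences of Gbp2 and Gbp2b make their separate counts uncertain. Gbp4, on chromosome 5, stood at 44.7, 47.5 and 35.8 CPM at 0 h and at 86, 69.1 and 103 CPM at 2 h. Its log2 fold change of 1.03 ± 0.22 (adjusted p = 0.0109, edgeR) lost the call without 2 h replicate 3 (adjusted p = 0.206), 0 h replicate 1 (0.0517) or 0 h replicate 3 (0.141). Gbp9, Gbp5 and Gbp6, at no more than 9.87 CPM in the 6 samples, gave log2 fold changes of 0.98, 1.05 and 0.63 and did not pass.

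Of 40 antiviral effectors and sensors, 36 were tested and 2 rose, with a median log2 fold change of 0.39, or 0.30 with the 1 gene at 0 counts set to its bound. Zbp1, a sensor of Z-form nucleic acid that can start necroptosis, stood at 86.7, 65.5 and 75.1 CPM at 0 h and at 129, 111 and 159 CPM at 2 h. The groups did not overlap, and the log2 fold change was 0.81 ± 0.16 (adjusted p = 0.00322, edgeR), with an adjusted p of 0.108 without 2 h replicate 3 and 0.066 without 0 h replicate 2. Ifi203, of the PYHIN family of DNA-binding proteins, stood at 30.4, 19 and 28.9 CPM and at 63.2, 74.6 and 61.1 CPM, a log2 fold change of 1.32 ± 0.20 (adjusted p = 3.02e-05, edgeR). Mndal, which is named for its place beside Ifi203 after its values were seen, gave 1.17 ± 0.27 (adjusted p = 0.0258, edgeR). Its call was lost without 2 h replicate 2 (adjusted p = 0.0926) or 3 (0.21) and without 0 h replicate 1 (0.279), 2 (0.16) or 3 (0.0608), and Ifi203 overlaps it on the same strand of chromosome 1, so that reads of the pair may not be separable. Ifitm3, Xaf1 and Samhd1, the best measured of the other members, gave 0.21, 0.05 and 0.01.

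No gene passed in the lists of signal carriers and of feedback inhibitors of interferon signalling. Of 10 receptor, JAK and STAT genes 9 were tested, with a median log2 fold change of 0.40 and none called. Stat6 and Tyk2 gave 0.13 and 0.05. Of 10 feedback inhibitors 7 were tested and none passed, with a median of 0.24. Socs1, the inhibitor of JAK activity, had 3 counts in all at 0 h and 21 at 2 h, a depth-scaled ratio of 5.15 with an exact 95% interval of 1.54 to 27, which covers counting error only (adjusted p = 0.598, edgeR). Usp18, Ptpn11 and Pias1 gave 0.24, 0.13 and -0.16.

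The machinery of class I antigen presentation did not pass either, with 18 of 19 genes tested, a median log2 fold change of 0.28 and a range of -0.31 to 1.10. B2m, the light chain of class I molecules, gave 0.34 ± 0.13 (adjusted p = 0.57, edgeR), Tapbpl 0.05 and H2-T23 -0.18. The 7 class II genes were not tested, with at most 2 counts in any of the 6 libraries. All 8 PARP family and Dtx3l genes were tested, and none passed, with a median of 0.56. Parp14, an ADP-ribosyltransferase studied as a regulator of IFNγ signalling, stood at 4.47, 2.85 and 8.09 CPM at 0 h and at 4.55, 6.17 and 8.23 CPM at 2 h. These ranges overlapped, the sums of 22 and 33 counts gave a depth-scaled ratio of 1.1 (exact 95% interval 0.625 to 1.99, counting error only), and the adjusted p was 0.979. Parp9, Zc3hav1 and Parp11 gave log2 fold changes of 0.65, 0.47 and 0.43.

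Of the checkpoint and lymphocyte ligands 5 of 14 were tested and none passed. Cd274, which encodes the checkpoint ligand PD-L1, had 5, 1 and 5 counts at 0 h and 56 in all at 2 h, a depth-scaled ratio of 3.75 with an exact 95% interval of 1.94 to 7.93 for counting error only. All 3 rechallenged samples lay above the others, and the adjusted p was 0.301. Lgals9, Cd47 and Vcam1 gave log2 fold changes of 0.21, 0.27 and -0.17. Of 13 chemokine genes with Csf1 only Cxcl10 and Csf1 passed the filter on low counts, with log2 fold changes of 0.89 and 0.37 that did not pass the test. Over all interferon lists, 102 of 116 tested genes (87.9%) had a positive log2 fold change, against 52.4% of all genes tested, and 15 rose, so that most of this direction lay in changes that were not past the threshold.

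**Figure D3:**
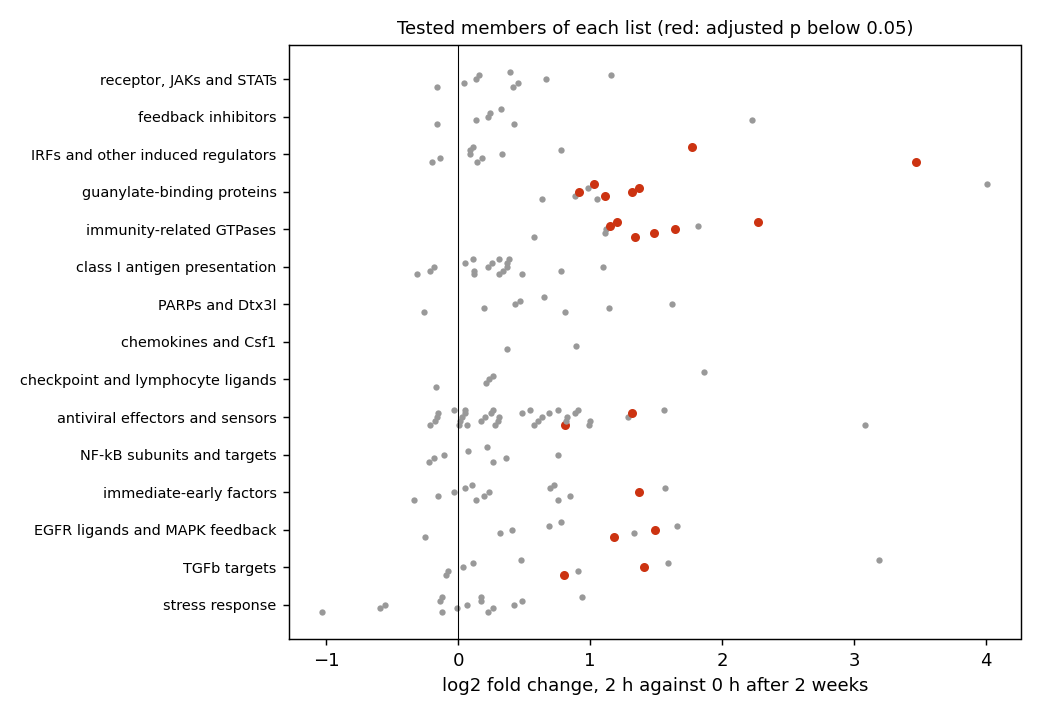
Each point is a tested member of a list, placed by its log2 fold change of 2 h against 0 h of rechallenge after 2 weeks, with genes past an adjusted p of 0.05 in red and the others in grey. All red points lie right of 0, and the guanylate-binding proteins and immunity-related GTPases hold 11 of them.

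A further group of risen genes has no place in the interferon lists. Errfi1, a feedback inhibitor of the epidermal growth factor receptor (EGFR), stood at 17.9, 19.9 and 31.8 CPM at 0 h and at 46, 93.2 and 65.2 CPM at 2 h, with no overlap. Its log2 fold change was 1.49 ± 0.28 (adjusted p = 0.00137, edgeR), and the adjusted p was 0.0538 without 2 h replicate 2, the sample with the highest value. Ereg, an EGFR ligand, stood at 12.5, 18 and 24.8 CPM and at 42.5, 45 and 42.3 CPM, a log2 fold change of 1.18 ± 0.24 (adjusted p = 0.00525, edgeR, or 0.144 without 0 h replicate 1). Of 18 EGFR ligands and feedback genes of the MAP kinase pathway 9 were tested and these 2 rose, with a median of 0.78. Dusp6, Hbegf and Plaur gave 0.78, 0.69 and 0.32 and did not pass.

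Junb, a component of the AP-1 transcription factor, stood at 21.4, 23.7 and 26 CPM at 0 h and at 70.8, 49.4 and 65.8 CPM at 2 h, a log2 fold change of 1.37 ± 0.24 (adjusted p = 0.00051, edgeR). It was the only 1 of 14 tested immediate-early factors, of 26 listed, to pass, and the median of the 14 was 0.21. Klf6, Klf10 and Myc gave 0.72 ± 0.20 (adjusted p = 0.176, edgeR), 0.13 and -0.15. Of 17 TGFβ targets 10 were tested and 2 rose, with a median of 0.64. Skil, which encodes a repressor of SMAD signalling, stood at 8.04, 8.55 and 11 CPM and at 20.2, 27.8 and 27.6 CPM, a log2 fold change of 1.41 ± 0.29 (adjusted p = 0.00679, edgeR). Its adjusted p was 0.0519 without 2 h replicate 2, 0.0662 without 2 h replicate 3, 0.0836 without 0 h replicate 1, 0.0666 without 0 h replicate 2, and 0.0558 when only the compared groups were fitted.

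Id2, an inhibitor of basic helix-loop-helix factors, gave a log2 fold change of 0.80 ± 0.17 (adjusted p = 0.0104, edgeR), with an adjusted p of 0.181 without 2 h replicate 1, 0.0781 without 2 h replicate 3, 0.155 without 0 h replicate 2 and 0.0608 without 0 h replicate 3. Id3, Tgfb1 and Tgif1 gave 0.48, -0.08 and 0.04. Ptgs2, the inducible cyclooxygenase, and Krt20, an intestinal keratin, rose as well and are named after their values were seen. Ptgs2 stood at 35.7, 38.9 and 58.9 CPM at 0 h and at 111, 67.2 and 89.3 CPM at 2 h, a log2 fold change of 0.97 ± 0.20 (adjusted p = 0.00525, edgeR), with an adjusted p of 0.164 without 2 h replicate 1, 0.119 without 0 h replicate 1 and 0.0804 without 0 h replicate 2. Krt20 stood at 46.5, 50.3 and 52 CPM and at 83, 74.6 and 91.1 CPM, a log2 fold change of 0.74 ± 0.15 (adjusted p = 0.00579, edgeR), with an adjusted p of 0.0949 without 2 h replicate 3 and 0.0716 without 0 h replicate 1. Krt20 is itself an epithelial marker and carries the rise of that list, while Krt18 had a mean of 16.5 CPM at 0 h and 19.2 CPM at 2 h. Of the lists of NF-κB subunits and targets (8 of 18 tested) and of stress responses (15 of 19 tested) no gene passed, with medians of 0.15 and 0.06. Tnfaip2, Nfkb1 and Rela gave 0.26, 0.36 and 0.22, and Hspa8, Hspa5 and Asns 0.06, -0.12 and -0.12.

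**Figure D4:**
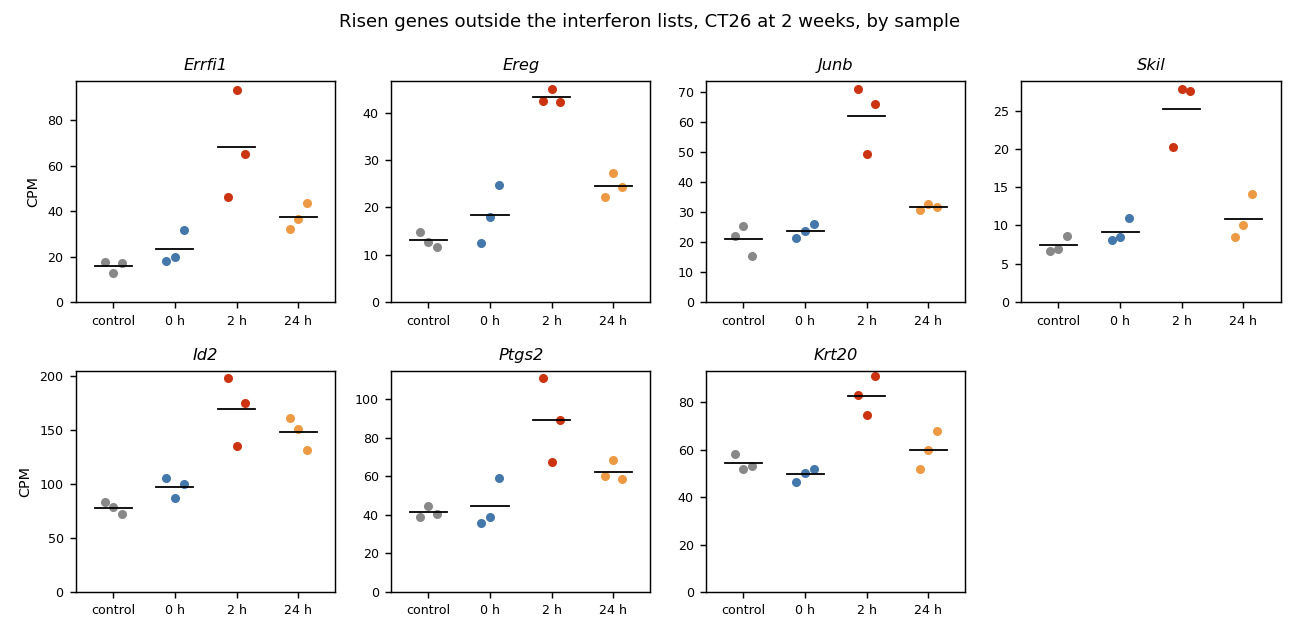
Each panel shows 1 risen gene outside the interferon lists in CT26 at 2 weeks, as CPM per sample in the control group, without rechallenge (0 h), and after 2 h and 24 h of rechallenge, with a bar at the mean of 3 samples. In each panel the 2 h samples lie above the 0 h samples and the controls, and the 24 h mean lies below the 2 h mean. The 0 h samples lie wholly above the controls in Errfi1 and Id2 and overlap them in the other panels.

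The single gene that fell was Ciart, a transcriptional repressor of the circadian clock. It stood at 46.5, 64.6 and 46.2 CPM at 0 h and at 33.9, 23.4 and 20.6 CPM at 2 h, with no overlap and a log2 fold change of -0.99 ± 0.21 (adjusted p = 0.00936, edgeR). The call was lost without 2 h replicate 2 (adjusted p = 0.0944), 2 h replicate 3 (0.203) or 0 h replicate 2 (0.207), and when only the compared groups were fitted (0.123).

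Whether the risen genes were already raised by the 2 weeks of IFNγ was asked by comparing the 0 h group with the control group of the same week, a comparison that shares the 0 h samples with the one above. It called 142 of 8516 genes (1.67%), 79 higher and 63 lower, or 103 higher and 46 lower when library totals were the only scaling. Of the 25 genes that rose on rechallenge, 14 were also higher after 2 weeks and 11 were not called. The 14 were Irf1, Zbp1, Gm4841, the 5 guanylate-binding proteins and the 6 immunity-related GTPases. Leaving out F830016B08Rik, Gm4841 and Gm4951, which had 1 or 2 counts over the control libraries, their log2 fold changes lay between 1.60 ± 0.12 in Irgm1 and 5.30 ± 0.38 in Iigp1. Irf1, for instance, stood at 10.3, 5.75 and 10.6 CPM in the control samples, a log2 fold change of 1.67 ± 0.27 at 0 h (adjusted p = 3.08e-05, edgeR). Errfi1, Ereg, Junb, Skil, Id2, Ptgs2, Krt20, Ifi203, Mndal and Batf2 were among the 11 that were not called, with 0.20 ± 0.28 in Junb and 0.57 ± 0.35 in Errfi1.

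The 24 h group of rechallenge was then compared with the 2 h group. This comparison shares the 2 h samples with the first one and called 21 genes (0.247%), 17 higher and 4 lower at 24 h. Of the 25 risen genes, 6 were higher again at 24 h, 3 were lower and 16 were not called. The 25 were picked as high in the same 2 h samples, which by itself favours lower values at 24 h. Gbp4 went from 86, 69.1 and 103 CPM at 2 h to 356, 321 and 431 CPM at 24 h, a further log2 fold change of 2.10 ± 0.19 (adjusted p = 8.75e-11, edgeR). Gbp2b, Gbp2, Gbp3, Zbp1 and Gbp7 gained 1.78, 1.68, 1.46, 1.19 and 0.77 on the log2 scale, and Gbp7 lost the call without 2 h replicate 2 (adjusted p = 0.0527).

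Ly6a, Psmb10 and Wars, which did not pass at 2 h, were higher at 24 h by 1.43 ± 0.16, 0.81 ± 0.10 and 0.73 ± 0.11, and they encode a surface antigen, an immunoproteasome subunit and a tryptophanyl-tRNA synthetase. In contrast Irf1, at 120, 92.6 and 94.6 CPM, gave a log2 difference of 0.04 ± 0.16 between 24 h and 2 h (adjusted p = 1, edgeR), and Irgm1 -0.11 ± 0.10 (adjusted p = 1). Junb and Skil fell by 0.98 and 1.20 on the log2 scale (adjusted p = 0.0391 for each, edgeR). Junb lost this call without any 1 of 5 libraries (adjusted p up to 0.325) and Skil without any 1 of 4 (adjusted p up to 0.508), by DESeq2 (0.086), with library totals as the scaling (0.0647), without the filter (0.116), with the replicate number as a block (0.0506) and with only the compared groups (0.152). Ndufa4 was lower too and is named after its values were seen (-0.46, adjusted p = 0.0329, or 0.321 without 24 h replicate 1, 0.168 without 24 h replicate 3, 0.274 without 2 h replicate 1 and 0.264 without 2 h replicate 3). The count of 21 was 10 without 24 h replicate 1, 13 without 2 h replicate 1 and 12 without 2 h replicate 2.

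Whether cells that had lived in IFNγ answered differently from naive cells was tested as the difference between the 2 h responses, that is, the 2-week change less the change of naive cells. It passed in 7 of 8516 genes (0.0822%), with 6 responses smaller and 1 larger after 2 weeks. Naive cells were harvested at week 0, and no culture kept 2 weeks without IFNγ was then given it for 2 h. Earlier exposure and time in culture therefore cannot be told apart. Irf1 rose by 3.46 ± 0.22 in naive cells against 1.77 ± 0.18 after 2 weeks, a difference of -1.69 ± 0.30 on the log2 scale (adjusted p = 0.00228, edgeR, or 0.0873 without 0 h replicate 3). Its starting level differed, at 6.54 to 8.51 CPM in naive controls and 22.3 to 37.6 CPM after 2 weeks, while the level reached was 73.1 to 85.5 CPM in naive cells and 91.9 to 105 CPM after 2 weeks. Irgm1, Igtp and Gbp7 showed differences of -1.14 ± 0.16, -1.84 ± 0.26 and -2.14 ± 0.34 (adjusted p = 5.38e-05, 5.38e-05 and 0.000257, edgeR). In each of them the level reached was higher after 2 weeks than in naive cells, with 598 to 769 against 394 to 433 CPM in Irgm1, 184 to 219 against 73.5 to 83.9 CPM in Igtp, and 147 to 196 against 41.9 to 51.4 CPM in Gbp7. These levels are given as values, with no test.

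Tgtp1 gave a fitted difference of -5.22 (adjusted p = 0.000109, edgeR), which rests on naive controls with 10, 0 and 0 counts and depends on the fit's prior count. Its near-identical copy Tgtp2 gave -1.21 ± 0.51 (adjusted p = 0.931, edgeR). Counts may be divided wrongly between the copies, which was not tested. Of the risen genes outside the interferon lists, several gave small values in naive cells, with -0.16 in Errfi1, -0.05 in Skil, 0.16 in Junb, -0.08 in Ptgs2 and 0.19 in Id2, but the differences of these 5 from naive cells did not pass, the nearest being Errfi1 at 1.66 ± 0.39 (adjusted p = 0.0978, edgeR). These genes were picked by their 2 h response at 2 weeks, which by itself favours smaller values in groups not used for the choice. After 1 week of IFNγ the 2 h change was 1.27 ± 0.30 in Errfi1 and 1.44 ± 0.35 in Skil. It was 0.98 ± 0.27 in Junb, 1.46 ± 0.21 in Id2 and 0.10 ± 0.18 in Krt20. These values are given as a description, and unrechallenged replicate 3 of week 1 had only 322486 counts.

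After 3 weeks of IFNγ the 2 h response was smaller in 3 genes (0.0352%), Gbp7, Irgm1 and Irf1. Length of exposure and time in culture go together here too and cannot be told apart. The log2 fold change of Irf1 was 0.46 ± 0.18 at 3 weeks, a difference of 1.31 ± 0.26 from the 2-week response (adjusted p = 0.0199, edgeR). In Gbp7 it was 0.09 ± 0.14, a difference of 1.22 ± 0.21 (adjusted p = 0.00655), and in Irgm1 0.36 ± 0.11, a difference of 0.85 ± 0.15 (adjusted p = 0.00668). Irf1 stood at 59.7, 93.6 and 73.6 CPM without rechallenge at 3 weeks, above all 0 h samples of 2 weeks, and at 116, 92.2 and 100 CPM after 2 h, close to the 2-week values. The 3-week libraries were shallower, with 295157 to 1080409 counts at 0 h and 774388 to 1183122 at 2 h. No gene passed in edgeR when only these 4 groups were fitted, or without 2 h replicate 3 or 0 h replicate 1 of week 2, where 368, 490 and 411 genes had an unadjusted p below 0.05, while DESeq2 called 8. Without 2 h replicate 2 of week 3 only Gbp7 passed, with Irgm1 at an adjusted p of 0.13 and Irf1 at 0.136. Irf1 also lost the call without 2 h replicate 1 (adjusted p = 0.0767) or 0 h replicate 2 (0.139) of week 2 and without 2 h replicate 3 (0.0669) or 0 h replicate 2 (0.294) of week 3.

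**Figure D5:**
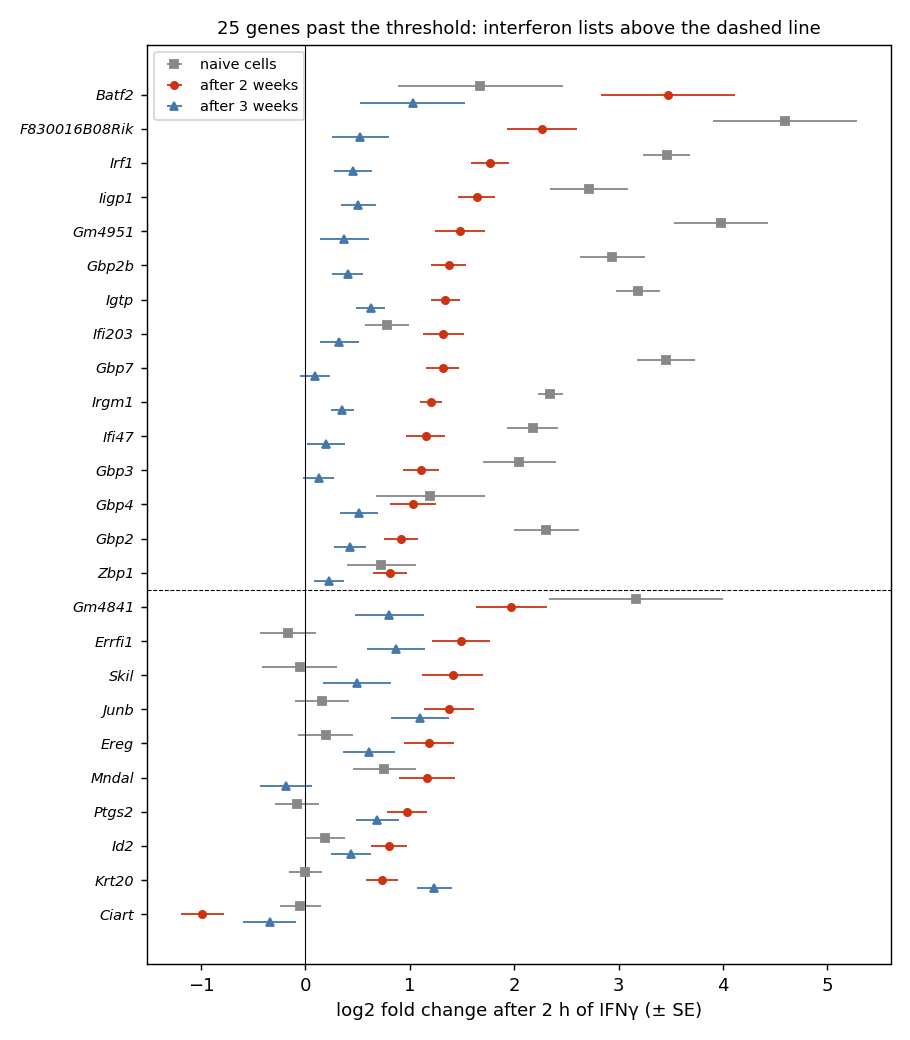
The log2 fold change after 2 h of IFNγ (± SE, n = 3 against 3) of 25 genes past the threshold at 2 weeks, in naive cells (grey squares), after 2 weeks (red circles) and after 3 weeks (blue triangles), with the 15 interferon list genes above the dashed line. Irf1 stands at 3.46, 1.77 and 0.46 and Errfi1 at -0.16, 1.49 and 0.87. The differences of Errfi1 from naive cells and from 3 weeks did not pass, and the genes shown were chosen by their change at 2 weeks. The naive values of F830016B08Rik, Gm4841 and Gm4951 rest on 1 to 4 counts in the naive controls.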

How the data were processed

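CT26 RNA was profiled by 3′ digital gene expression. A table of whole-number gene counts, neither normalized nor pooled over replicates, was deposited by the authors. Salmon 0.13.1 and mm10 are named in the submitters' processing notes, and the paper names tximport. The annotation, the parameters and the treatment of molecular identifiers are not given in the sources used here. Groups were taken from GEO labels and 0 columns were unused. The paper discarded some CT26 samples that it does not name, so all 45 were kept.

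The 53697 genes were matched to symbols by Ensembl number (53668 matched), and older list symbols through RefSeq synonyms. Counts of the 45 CT26 samples, 295157 to 2205285 per library, were fitted together over 15 groups with edgeR 4.0.16 in R 4.3.3 (filterByExpr, TMM, quasi-likelihood tests, Benjamini-Hochberg adjustment, threshold 0.05). The filter admits genes through any group with enough counts, so a gene may pass it through the group in which it is high. CPM are scaled to the counts of the tested genes in each library times its TMM factor. Intervals and floors (3 counts) cover counting error only, and genes of few counts had low precision. Positions are from GRCm38 and promoters from RefSeq. The code was tested on simulated data.

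The members and gene lists were chosen with earlier results of these data known. Named genes were the 15 largest rises and 10 largest falls past the threshold with samples that did not overlap, list members past it, up to 3 of the best measured other members per list, Irf1, Socs1, Cd274 and Parp14, and, for the other comparisons, the 8 smallest p values. Mndal, Ptgs2, Krt20 and Ndufa4 fall outside this rule. Some genes that the rule names are not reported here. Alternatives were DESeq2 1.42.0, library totals as scaling, no filter, a fit of the compared groups alone, a replicate block, each library left out in turn, libraries under 25% of the median total left out, and a minimum log2 change of 0.5 in either direction.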

Additional observations from a re-analysis of the deposited data

Results flagged for a closer look

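Responses at 2 h that differed between durations of exposure by a test of the difference itself (edgeR's quasi-likelihood test, Benjamini-Hochberg adjustment) were listed. Duration of exposure cannot be told apart from time in culture in these samples. Against naive cells, the log2 response after 2 weeks differed by -1.14 in Irgm1, -1.84 in Igtp, -5.22 in Tgtp1, -2.14 in Gbp7 and -1.69 in Irf1. Under 18 alternatives the call of Irf1 held in 17 and those of the other 4 in all 18. The fitted difference of Tgtp1 lay between -9.69 and -4.6 under these alternatives. It rests on few counts in the naive controls, and counts may be divided wrongly between Tgtp1 and its near-identical copy Tgtp2. Against 3 weeks, it differed by 1.22 in Gbp7, 0.85 in Irgm1 and 1.31 in Irf1, and these calls held in 15, 14 and 10 of 18 alternatives.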

How the results depend on the processing

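For the 2 h rechallenge after 2 weeks, the count of 26 genes lay between 23 and 30 under DESeq2, library totals, only the compared groups, the replicate block and leaving out shallow libraries, and between 19 and 25 when 1 library was left out. Without the filter on low counts it was 83. All 26 genes kept their direction under 12 alternatives, and 16 of them kept the call in all 12. Without the filter, the difference from naive cells called 35 genes, the difference from 3 weeks 52 and 24 h against 2 h 48. The difference from 3 weeks called 8 genes by DESeq2 and, in edgeR with only the compared groups, 0 (368 at an unadjusted p of 0.05). Leaving out 1 library gave 7 to 9 genes for the difference from naive cells, 0 to 5 for that from 3 weeks, 10 to 16 for 24 h against 2 h, and 104 to 116 for 2 weeks of IFNγ against the control. The cause of these changes was not tested. With only the compared groups fitted, Ciart, Ereg, Krt20, Mndal, Ptgs2 and Skil lost the call of the 2 h rechallenge (adjusted p of 0.0519 to 0.123). With the replicate block the counts were 27, 7, 3, 19 and 142, in the order main comparison, naive cells, 3 weeks, 24 h and control. The labels do not say that replicate numbers pair the samples. The deviations of same-numbered samples correlated at 0.117, -0.00792 and -0.111, against -0.152 to 0.162 for samples of different numbers. With 3 samples a group, these values cannot decide whether the numbers pair the samples. At 1080166 to 2080209 counts per library, changes of genes with a few counts, such as Socs1 and Cd274, had wide counting intervals.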
